A study of Mus musculus with 11 samples.

Results

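The regions described here are the tall peaks of the autosomes: the entries of the deposited peak list on chromosomes 1 to 19 whose pileup was at least 20 tags. Pileup is the number of sequenced tags that cover a peak's summit. The rule kept 404 of the 8953 autosomal peaks (4.51%), out of 9381 peaks in the whole list. The peaks were chosen by their pileup, so their pileup, fold and q values, all of which come from the same tags, are given as descriptions without any test.

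The series holds 11 mouse samples and studies the zinc finger protein ST18. The samples this list can belong to are 2 chromatin immunoprecipitation (ChIP) libraries made against an HA tag and labelled ST18, and 1 library labelled as input genomic DNA, all from cells labelled TN, an abbreviation the labels do not spell out. The other 8 are RNA libraries of cells from embryonic cortex, electroporated in the embryo and sorted for GFP, 4 with ST18 knockdown and 4 controls; they were not analysed here. The protocol text of the TN samples repeats that of the embryos, so nothing further on genotype, strain or culture is known for them. Which alignment the list was made from is not known: the labels place it under the input sample, its header gives a name that matches no label, and no control library was used. Every value below therefore describes where tags of 1 unnamed alignment of 37201269 tags piled up, not where ST18 was bound, and there were no replicates.

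ChIP-seq peak callers look for places where tags lie closer together than the surrounding sequence would predict. Mouse autosomes have their centromeres at one end, and the assembled sequence of each chromosome begins next to a large gap that stands for centromeric satellite DNA. Satellite repeats, ribosomal RNA genes and recently duplicated segments can exist in many more copies in the genome than in its assembly, so that the tags of many copies align to few positions. Such places are known to give tall peaks in ChIP and input libraries alike. Whether the peaks described here hold such repeats was not tested, and no gene or repeat is assigned to them, because no genome of the files' build, mm9, was used here.

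Over the 404 peaks the pileup ran up to 61233 tags, with a median of 44.5 and quartiles of 26 and 68. The other 8549 autosomal peaks had a median of 9 tags and, by the rule, none above 19. Low values were the most common: 130 peaks (32.2%) lay between 20 and 29 tags and 86 (21.3%) between 30 and 47. A further 108 peaks (26.7%) lay between 48 and 96 tags. Above that, 29 peaks held fewer than 200 tags, 35 held from 200 to under 1000 and 16 held 1000 or more. The range from 48 to 96 tags was filled mainly by 1 place, the start of chromosome 11, which supplied 64 of the 108 peaks there.

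**Figure D1:**
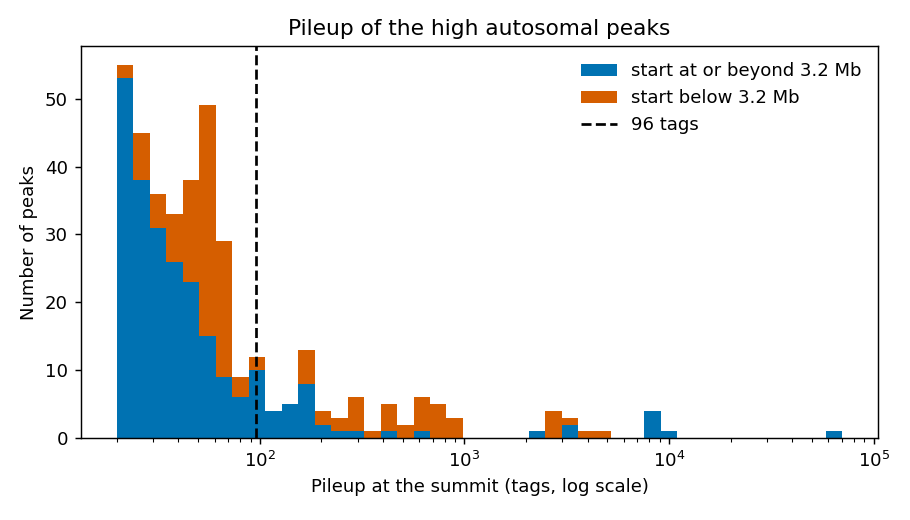
Number of high autosomal peaks (vertical axis) by pileup at the summit in tags (horizontal axis, log scale), split by whether the peak starts below 3.2 Mb on its chromosome; the dashed line marks 96 tags. Peaks below 3.2 Mb form the second rise around 50 to 70 tags and most of the values between 200 and 1000, while the 61233 tags of a peak on chromosome 2 stand alone at the right.

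At exactly 20 tags, just inside, there were 25 peaks with a median length of 64 bp and a median fold of 7.13. At 19 tags, just outside, there were 22 peaks with a median length of 54 bp and a median fold of 6.82. Of the 25 inside, 5 shared the highest fold of 10.7, and 3 of these began at 48383663 and 85077884 on chromosome 1 and at 57686724 on chromosome 10. Of the 22 outside, 6 shared the highest fold of 10.18, and 3 of these began at 8118512 on chromosome 1, 34444819 on chromosome 11 and 62038758 on chromosome 13. Peaks longer than 100 bp numbered 7 of the 25 inside and 1 of the 22 outside.

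The tall peaks were short, but less uniformly so than the rest of the list. Their median length was 76 bp (interquartile range 60 to 128 bp, range 48 to 1087 bp). Only 7 of them (1.73%) had the minimum length of 48 bp, which is the fragment length the peak caller used, against 6999 of the other 8549 peaks (81.9%). Since a peak with more tags stays above the caller's threshold over more bases, length is not independent of the rule. A length above 100 bp was reached by 137 tall peaks (33.9%) and by 210 of the others (2.46%). Together the tall peaks covered 46477 bp, 9.25% of all bases in autosomal peaks. Their summits lay near the middle, at a median of 49.5% of the peak's length.

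Length rose only loosely with pileup. Across the 404 peaks, which share 1 alignment and often a neighbourhood, Spearman's rho between length and pileup was 0.28. The 5 longest peaks all came from one stretch of 5.6 kb on chromosome 17, from 39980143 to 39985743. They were 1087, 799, 638, 598 and 536 bp long and held 172, 183, 179, 182 and 177 tags. The remaining 2 peaks of that stretch were 64 bp long each, with 166 and 154 tags. All 7 summits thus lay within 154 to 183 tags, and peaks covered 67.6% of the stretch, so that this place was a plateau rather than a row of spikes. By contrast, the tallest peak of all, on chromosome 2 from 98507114 to 98507461, was 348 bp long with 61233 tags, and a peak of 54 bp in the same cluster held 2254.

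**Figure D2:**
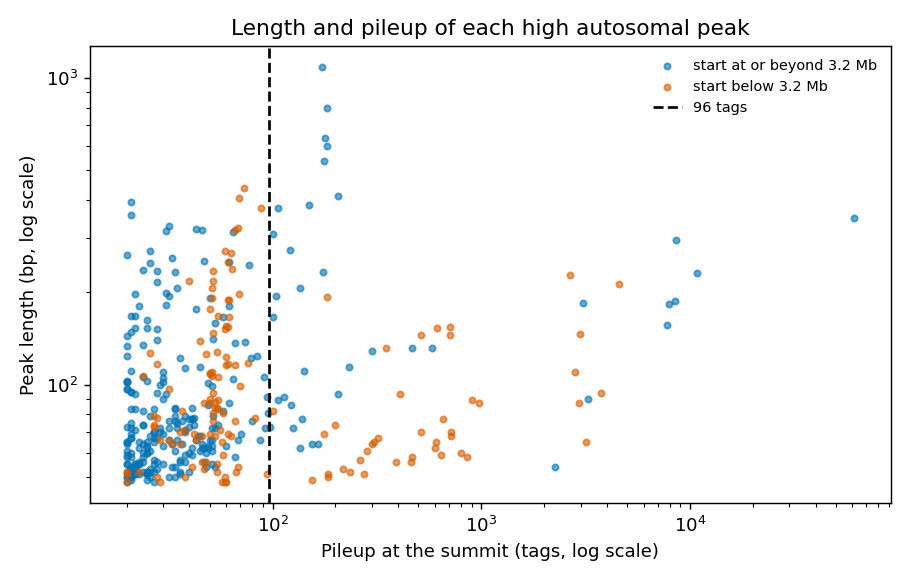
Each point is 1 of the 404 peaks, with its pileup at the summit in tags (horizontal, log scale) and its length in bp (vertical, log scale), coloured by whether it starts below 3.2 Mb; the dashed line marks 96 tags. The longest peaks, 536 to 1087 bp, sit between 172 and 183 tags, whereas most peaks of 200 to 1000 tags are shorter than 160 bp.

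A pileup above 96 tags has a particular meaning in this list. At the caller's fragment length of 48 bp, a base can be covered by at most 96 tags that differ in start position or strand. Of the 404 tall peaks, 80 (19.8%) exceeded this, against 0.894% of all autosomal peaks, which is the same 80 since every such peak is tall by the rule. Tags that share a position must have been counted more than once in them. They held a median of 303 tags, with quartiles of 174 and 739. The threshold did not fall in a gap: 10 peaks held 80 to 96 tags and 7 held 97 to 112, the nearest values on either side being 95 and 97. Taking the tag size of 50 bp in place of the fragment length raises the limit to 100 tags, which 77 peaks exceeded.

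These 80 peaks were unevenly spread. Chromosome 9 held 41 of them (51.2%), chromosome 2 held 9 and chromosome 17 held 8, and 5 autosomes (1, 7, 8, 10 and 14) held none. Below 3.2 Mb lay 42 of the 80. Outside clusters, as defined below, lay 13, with a median length of 185 bp and a median fold of 63.1. Without chromosome 9 the share above 96 tags fell to 11.2%, so that chromosome 9 alone moved it by more than 1.5 times.

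The 10 highest pileups came from 3 places. The cluster on chromosome 2 near 98.5 Mb supplied 6 of them, with 61233, 10757, 8451, 7964, 7756 and 3258 tags. Chromosome 9 supplied the other 4: one peak that stood alone, from 35112798 to 35113093, with 8579 tags, and 3 near the chromosome's start, with 4566, 3730 and 3163 tags. These 10 peaks made up 70.2% of the pileup summed over all 404, and the 7 peaks of the chromosome 2 cluster alone 59.8%. A sum or mean of pileup over the tall peaks is therefore a statement about very few positions.

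The distribution over chromosomes was set by 2 of them. Chromosome 11 had 80 tall peaks (19.8%) and chromosome 9 had 56 (13.9%), while they held 6.90% and 5.60% of the other autosomal peaks. Next came chromosome 2 with 32, chromosomes 1 and 4 with 28 each, chromosome 8 with 27, chromosome 17 with 26 and chromosome 18 with 21. Chromosomes 13 and 15 had the fewest, 6 each. As a share of a chromosome's own peaks, tall ones ranged from 1.53% on chromosome 7 to 11.9% on chromosome 11.

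The excess on chromosomes 9 and 11 lay at their starts. The assembled sequence of an autosome begins at about 3 Mb, and the first peak of any autosome in the list began at 3000017. Below 3.2 Mb lay 139 of the 404 tall peaks (34.4%), against 1.76% of all autosomal peaks and 19 of the 8549 others (0.222%). Put the other way, 88.0% of the 158 autosomal peaks in this interval were tall. Chromosome 11 supplied 74 of the 139 and chromosome 9 supplied 39. Chromosomes 4, 17 and 18 had 8 each, chromosomes 6 and 12 had 1 each, and the remaining 12 autosomes had none. Without chromosome 11 the share near the start was 20.1%, and without both chromosomes it was 9.70%, still above the 0.222% of the other peaks, which included those of chromosomes 9 and 11.

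**Figure D3:**
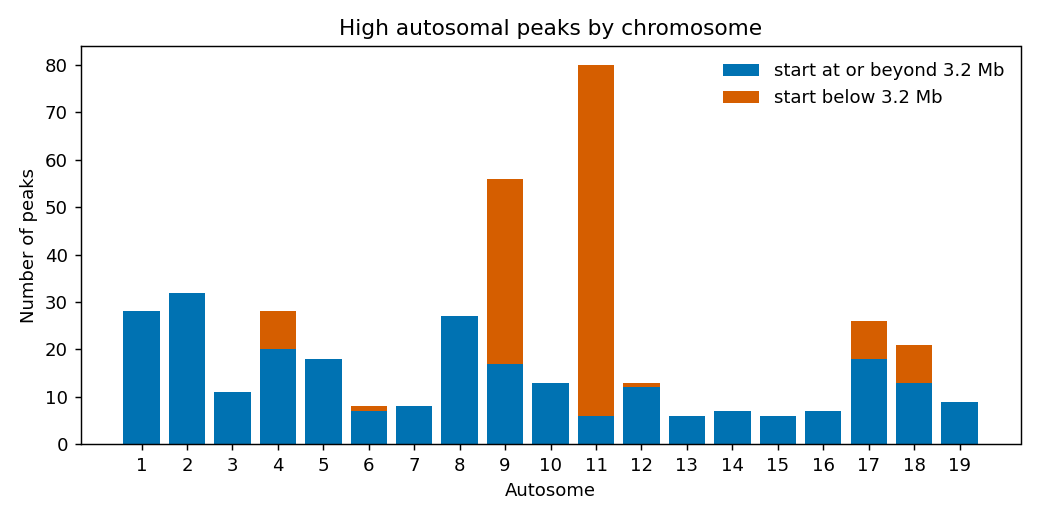
Number of high autosomal peaks (vertical axis) on each of the 19 autosomes (horizontal axis), stacked by whether the peak starts below 3.2 Mb. Chromosome 11 has 74 of its 80 and chromosome 9 has 39 of its 56 below 3.2 Mb, and 12 autosomes have none there.

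Beyond 3.2 Mb lay 265 tall peaks and 8530 of the other autosomal peaks. Of these 265, 22 (8.30%) started below 10 Mb, beside 4.87% of the 8530. Those beyond 3.2 Mb had a median start of 56.4 Mb (interquartile range 21.9 to 98.5 Mb), against 72.6 Mb (36.6 to 109 Mb) for the other autosomal peaks. On chromosome 11 only 6 were left, 2.26% of the 265 beyond 3.2 Mb. Chromosome ends could be judged only by the last peak of each chromosome in the list, since the chromosome lengths of mm9 were not used here. Within 1 Mb of that last peak lay 19 tall peaks (4.70%) and 95 of the others (1.11%), and the 19 were on chromosomes 2 (9), 19 (5), 9 (3) and 1 (2).

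Tall peaks mostly had tall neighbours. Another tall peak lay within 10 kb of 290 of the 404 (71.8%), whereas 14.6% of all autosomal peaks had any other peak within 10 kb. The median distance from a tall peak to the nearest tall peak was 443 bp. Among the other 8549 peaks, which are far more numerous and so would lie closer together by number alone, the median distance to the nearest of their own kind was 77501 bp. Within 1 kb, 244 tall peaks (60.4%) had a tall neighbour, and 206 of the others (2.41%) had one of their own kind.

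Tall peaks no more than 100 kb apart were joined into clusters. This gave 44 clusters holding 304 peaks (75.2%), with 100 peaks left alone. Of the clusters, 14 were pairs, 16 had 3 or 4 peaks and 14 had 5 or more, and the last group held 221 peaks (54.7%). The 3 largest held 135 (33.4%). Many were compact: 12 clusters spanned less than 1 kb, and the 14 pairs spanned from 191 to 3180 bp. Of the 44 clusters, 29 had no lower peak of the list inside them. With respect to 96 tags clusters were mostly of one kind, 5 wholly above, 32 wholly at or below, and 7 mixed. Without the peaks below 3.2 Mb, 63.0% of the remainder were in clusters.

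The largest cluster was the 74 peaks at the start of chromosome 11, from 3000443 to 3099128. Its peaks were of even height: 68 of the 74 held 40 to 80 tags, with a range of 23 to 94 and a median of 55. None passed 96. They were 48 to 436 bp long, with a median of 96.5 bp, and covered 9.63% of the 98.7 kb. Its tallest peak, from 3059552 to 3059602, held 94 tags at a fold of 3.19. The first peak of the cluster held 48 tags at a fold of 16.4, and the last, from 3099020 to 3099128, held 50 tags at a fold of 3.36. Of the 74, 66 had a fold below 5, although all met the caller's q threshold.

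The second cluster, at the start of chromosome 9 from 3000017 to 3038239, was as uneven as that on chromosome 11 was even. All 39 peaks passed 96 tags, with a range of 155 to 4566 and a median of 517, and 6 held 1000 or more. Yet the peaks were narrow, with a median length of 67 bp. Its first peak, from 3000017 to 3000229, was also its tallest, at a fold of 68.7, and its last, from 3038166 to 3038239, held 200 tags at a fold of 6.89. The peak with its highest fold, 70.5, lay from 3035690 to 3035917 with 2650 tags. Neighbouring peaks were a median of 363 bp apart, close to the 373 bp on chromosome 11.

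The third cluster, 22 peaks on chromosome 8 from 19876971 to 20033048, lay far from a chromosome start. It was low and loose, with pileups of 20 to 55, a median gap of 1586 bp and 16 lower peaks of the list between its members. Both its first and its last peak held 25 tags at a fold of 13.2. No member had a fold below 5, the lowest being 6.64.

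**Figure D4:**
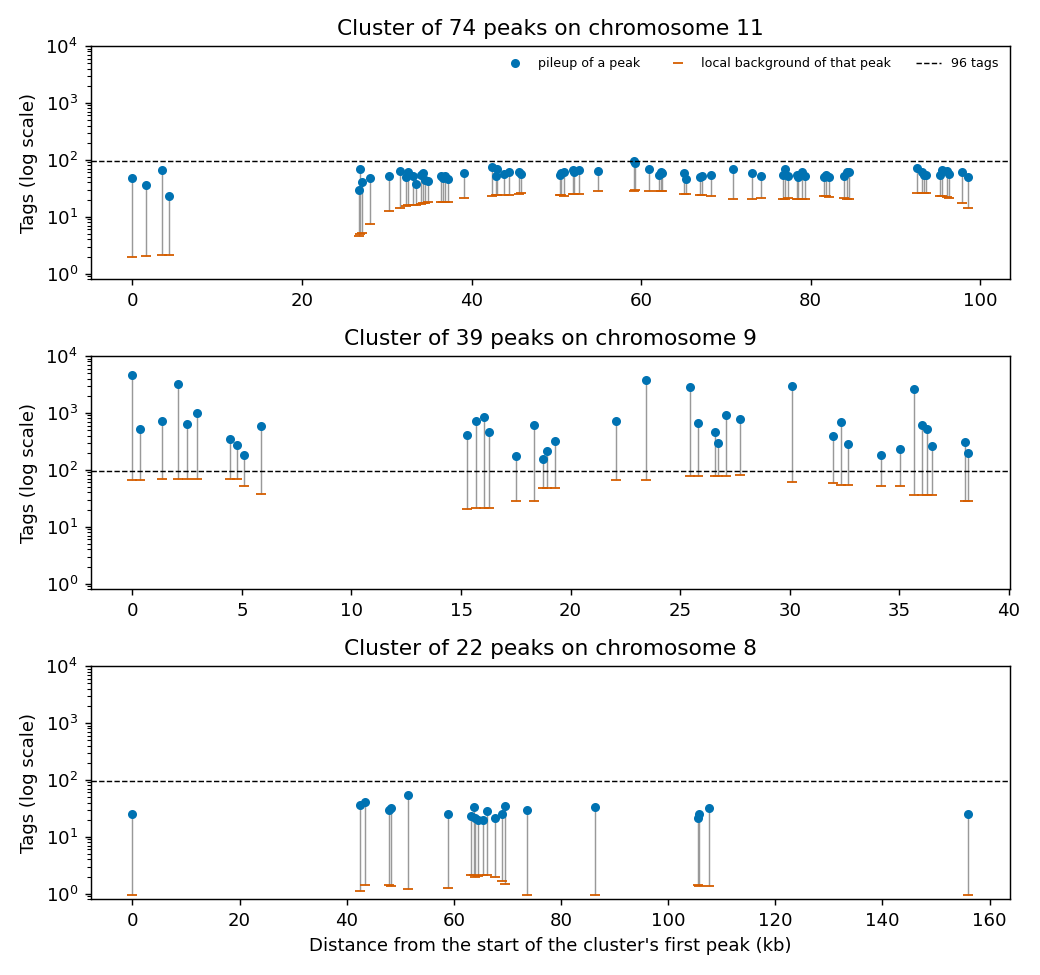
The 3 largest clusters, on chromosomes 11, 9 and 8: each blue point is the pileup of 1 peak and each orange dash the local background at that peak, both in tags (log scale) and joined by a grey line, against the distance in kb from the cluster's first peak; the dashed line marks 96 tags. Pileups on chromosome 11 stay between 23 and 94, those on chromosome 9 run from 155 to 4566, and those on chromosome 8 from 20 to 55 over a background of 0.965 to 2.16.

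Smaller clusters repeated these kinds. On chromosome 2 from 27351343 to 27358197, 13 peaks held 20 to 94 tags within 6.86 kb. On chromosome 1 from 87487802 to 87521767, 10 peaks held 22 to 43 tags and were long, with a median of 180 bp. Near the far end of chromosome 2, from 181652067 to 181666007, 9 peaks held 30 to 123 tags. The starts of chromosomes 4 and 17 carried 8 peaks each, of 20 to 42 and 27 to 54 tags. The start of chromosome 18 also carried 8, of 20 to 183 tags, with 1 above 96. Between 144955784 and 146893891 on chromosome 4, 3 clusters with 14 peaks in all held at most 26 tags and enclosed 31 lower peaks. Tall peaks that stood alone lay between these clusters, the highest with 27 tags. Peaks on both sides of the threshold were thus mixed there.

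The deposited fold sets each pileup against the background around it, and it allowed that background to be read back. The fold equalled the pileup plus 1 over the background plus 1: with backgrounds solved this way, the Poisson tail gave the deposited −log10 p within 0.001 for all 9343 peaks whose tail could be computed, of 9381. For 81 tall peaks the background was the genome-wide floor of 0.965 tags, against 4473 of the other autosomal peaks (52.3%). For the remaining 323 it was a local value, taken by the caller over 10000 bp. Multiplied out, the local value gave the number of tags in that window, which came out whole within 0.1 tags for 316 of the 317 peaks where rounding of the fold allowed the check. The window includes the peak itself, because no control library was used.

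Windows around some tall peaks held far more than the genome-wide average of 199 tags in 10000 bp. A local value exists only where it passes the genome-wide floor, so every window counted here passes that average by construction. The median over the 323 was 710 tags, and over the 4076 other autosomal peaks with a local value it was 226. The 81 tall and 4473 other peaks at the floor are left out. Each window also holds its peak's own tags, at most 19 in the other peaks, so this contrast is not independent of the rule. Outside the start clusters of chromosomes 9 and 11 the median was 414 tags, over 210 tall peaks with a local value. For the 47 such peaks that stood alone it was 266. Around the chromosome 11 cluster the median was 4411 tags, 22.2 times the average, and around the chromosome 9 cluster 11148 tags, 56.0 times. At both starts the windows of the first peaks reach into the gap before the assembled sequence, where no tag can align. The tag counts, folds and summit shares of those first peaks therefore rest on less sequence. The plateau on chromosome 17 had 10845 tags, 54.5 times the average. Near 98.5 Mb on chromosome 2 the window held up to 175383 tags, 882 times the average and 0.471% of all tags of the alignment. The cluster on chromosome 8 lay nearer the average. Its members with a local value had a median of 302 tags, 1.52 times the average, and at most 446 tags, 2.24 times.

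The share of a window's tags that lay at the summit separated spikes from broad heaps. It was 5.91% in the median tall peak with a local value, with a lower quartile of 2.18%, and 4.00% in the other autosomal peaks. The pileup is the numerator of this share, and the other peaks held at most 19 tags by the rule. Their share reached at most 9.41%, so the contrast between tall and other peaks is not independent of the rule. On chromosome 11 it was 1.26% in the median peak, with a lowest value of 0.904%. The plateau of chromosome 17 was alike, at 1.42% to 1.92%. On chromosome 9 it ran from 1.58% to 35.1%. The tallest peak on chromosome 2 held 34.9% of its window. In all, 96 of the 323 held less than 3% and 17 held more than 30%. The window's tags were obtained from the pileup and the fold. A high pileup with a low fold, as on chromosomes 11 and 17, therefore means a window full of tags by construction.

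**Figure D5:**
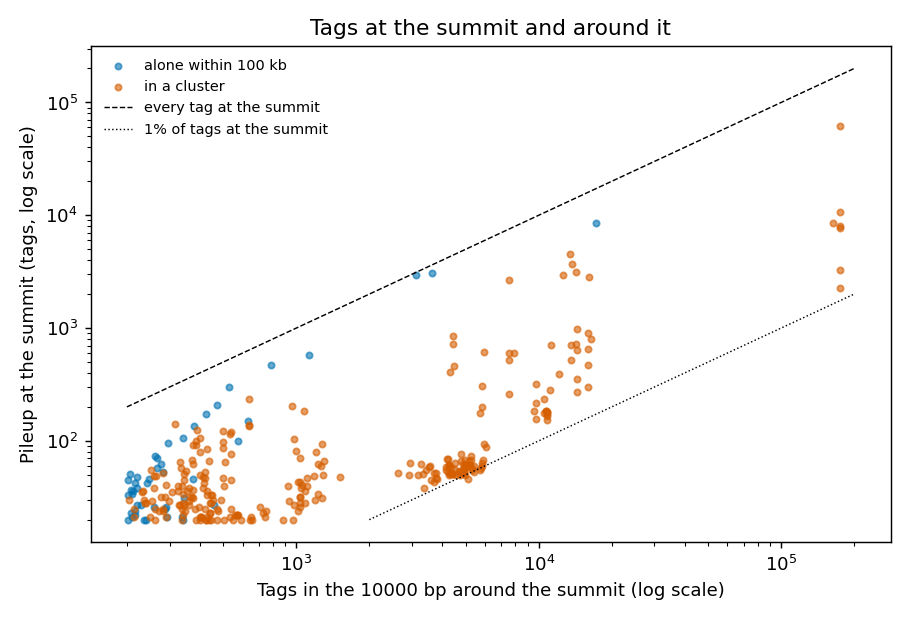
Pileup at the summit (vertical, log scale) against the number of tags in the 10000 bp around it (horizontal, log scale) for the 323 tall peaks with a local background, coloured by whether another tall peak lies within 100 kb. The dashed line is where every tag of the window would cover the summit and the dotted line where 1% would; the isolated peaks on chromosomes 12 and 6 come closest to the dashed line, and the dense group of orange points near 4411 tags, close to the dotted line, is mostly the chromosome 11 cluster.

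The 100 peaks that stood alone were the sharpest. Their median pileup was 34 tags and their median length 67.5 bp, against 50 tags and 77.5 bp in clusters, but their median fold was 17.3 against 9.07. None had a fold below 5, whereas 93 of the 304 clustered peaks did. For 53 of them the background was the genome-wide floor. Among the 47 with a local value, the summit held a median of 17.4% of the window, against 4.70% in clusters, and all 5 peaks whose summit held more than 50% were alone. Of the 304 clustered peaks, 137 started below 3.2 Mb, as did 2 of the 100 lone ones. The other 167 clustered peaks had a median pileup of 32 tags, below that of the lone peaks. Their median length was 77 bp and their median fold 11.9, and 17 had a fold below 5. In the 139 of these with a local value the summit held a median of 7.37%. The higher pileup in clusters was thus not seen beyond the chromosome starts. A neighbour within the window adds its tags to it, so neither the fold nor the share at the summit is independent of the definition of a cluster. Fold and share are also not separate measures, since both follow from the pileup and the background.

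Of the 10 highest folds, 7 belonged to peaks that stood alone. All 10 passed 96 tags, which the lowest of these folds, 63.1, already requires over the genome-wide floor. On chromosome 12 from 3109951 to 3110096, 2959 of the 3111 tags in the window lay at the summit (95.1%), at a fold of 184. On chromosome 6 from 103599060 to 103599244 it was 3074 of 3637 tags (84.5%), at a fold of 165. The peaks on chromosome 13 from 77578168 to 77578299 (467 of 789 tags), chromosome 9 from 24346459 to 24346587 (301 of 525) and chromosome 4 from 70039157 to 70039288 (579 of 1133) followed with 59.2%, 57.3% and 51.1%. The isolated peak at 35112798 on chromosome 9, with 8579 of 17263 tags, reached 49.7%, and the one on chromosome 16 from 10975176 to 10975268, with 206 of 470, reached 43.8%. In the first 2 of these, nearly everything the alignment placed within 10000 bp lay on a stretch of under 200 bp, and tags sharing a position account for most of it.

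Some tall peaks stayed within what distinct tags allow and were sharp as well. The highest fold among the 324 peaks at or below 96 tags was 39.4, on chromosome 2 from 5300338 to 5300418, where 95 of 296 tags (32.1%) lay at the summit. On chromosome 9 from 115059908 to 115060031, 84 of 426 tags did so (19.7%), at a fold of 27.7. The highest such pileup on chromosome 1, 53 tags from 197067769 to 197067840, and on chromosome 4, 51 tags from 28104084 to 28104146, stood over the genome-wide floor at folds of 27.5 and 26.5. As a group these 324 had a median pileup of 35 tags, a median length of 73 bp and a median fold of 10.9.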

How the data were processed

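The peak list was made with MACS2 2.0.10.20120913 from 1 alignment without a control, per the file headers, which give 37201269 tags of 50 bp, fragments of 48 bp, a q cutoff of 0.05, a background window of 10000 bp and an effective genome of 1870000000 bp. The fragment length of 48 bp is the caller's estimate and is shorter than the tags of 50 bp. Alternative lengths of 49 and 578 bp are also given. The minimum peak length and the limit of 96 tags rest on 48 bp, and neither alternative was tried. The build is mm9, per the submitters' processing notes. For aligner settings and duplicate handling the sources used here give nothing. The pileup (signal in tags), the fold (a ratio over the local background) and the −log10 p and −log10 q of each peak are the authors' deposited values, used only to describe and filter peaks.

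Peaks on chromosomes 1 to 19 with a pileup of at least 20 were kept. Clusters joined peaks at most 100 kb apart. The code for this step and for the recovery of the background was run on simulated data. The simulated folds were made with the same formula, so this checks the code only, not the formula or the joining distance. Python 3.11.15, pandas 2.3.3 and scipy 1.17.1 were used. No test was made, since 1 list has no replicates and peaks share neighbourhoods. The 2 count columns of the promoter table were not used: it gives symbols without coordinates. Regions named are the 10 highest by pileup and by fold, the 5 longest, 3 on each side of the threshold, the ends of the 3 largest clusters and, on 5 chromosomes, the highest at or below 96 tags; other clusters were named after their values were seen. The members and rules were chosen with earlier results of these data known.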

Additional observations from a re-analysis of the deposited data

How the results depend on the processing

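Of 32 alternatives, 15 stayed within the 95% binomial interval of the value (for the number of peaks, within 1.5 times) and 17 did not. The interval treats peaks as independent, which neighbouring peaks of 1 alignment are not. It served only as a yardstick for the size of a change and does not measure the spread of these values. Leaving out chromosomes or peaks below 3.2 Mb was chosen after seeing the data, except where noted. The number of tall peaks, 404, became 265 without those below 3.2 Mb. The share above 96 tags, 19.8%, became 13.5% from 15 tags up, 29.2% from 30 tags up, 14.3% without peaks below 3.2 Mb, 11.2% without chromosome 9 and 24.1% without chromosome 11. The median length, 76 bp, became 68 bp from 15 tags up and 82 bp from 30 up. The share in clusters, 75.2%, became 81.4% at 1 Mb, 70.4% (70.39%) from 15 tags up, 63.0% without peaks below 3.2 Mb and 70.4% (70.37%) without chromosome 11. The share near chromosome starts, 34.4%, became 20.1% without chromosome 11 (planned), 28.7% without chromosome 9 and 9.70% without both. The share on chromosome 11, 19.8%, became 2.26% without peaks below 3.2 Mb (planned) and 27.7% from 30 tags up. These changes follow from which peaks each setting keeps or, at 1 Mb, from the joining distance. The overlap with promoter windows was not run. Depth was not varied, and since 20 and 96 tags are absolute counts, the numbers of peaks that rest on them hold for this depth only. No paired analysis was possible because 1 unnamed alignment lies behind the list and no test was made.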

Other observations

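Without a control, a peak's own tags enter its background, which bounds the fold of a single pile of tags below 206, the window of 10000 bp over the mean fragment length of 48.5 bp that the lowest background implies. The folds of 184 on chromosome 12 and 165 on chromosome 6 were close to this bound, so the fold could not rank such peaks by height.

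Peaks of at least 20 tags on the sex chromosomes were counted in the same way. They were 139 of 232 peaks on chromosome X (59.9%) and 152 of 174 on chromosome Y (87.4%), against 4.51% on the autosomes. Of those on X, 7.91% passed 96 tags, and of those on Y 36.8%, beside 19.8% of the autosomal ones. In clusters of 100 kb spacing lay 92.8% of those on X and 100% on Y. All 152 on Y started below 3.2 Mb, and peaks so crowded would mostly join at 100 kb by number alone.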
